A study of Homo sapiens with 18 samples.

Results

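EDN2, P2RY6, PDE4B, PLK2, ANKRD50, RBM15, PHF23, KMT5B, SILC1 and C16orf87 were 10 of the 12755 genes with newly made RNA in this set of libraries, and all 10 were among the 10191 genes that passed the filter on low values. They were chosen by their values in the total or the nuclear libraries, with new RNA almost gone in at least 1 of these kinds of library after degradation of BET proteins. Those total and nuclear values are therefore given as a description, with no test of JQ1-VHL against DMSO in these libraries. The cytoplasmic libraries were not used in the choice.

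The cells were MDA-MB-453, an established human breast cancer line with luminal features. One set of cells received JQ1-VHL for 3 hours and the other received DMSO, the solvent control. All cells were given 0.1 mM 4-thiouridine for the last 60 minutes, a nucleoside that is built into new RNA and reads as a T-to-C change after iodoacetamide treatment. RNA was kept as total RNA or split into nuclear and cytoplasmic RNA with 1 mg/ml digitonin, which gave 6 groups of 3 libraries: JQ1-VHL total, nuclear and cytoplasmic, and DMSO total, nuclear and cytoplasmic. The sample titles call the drug dBET, whereas the treatment field gives JQ1-VHL, the name used here. JQ1-VHL removes BET proteins and not their mRNA, so no targeted transcript checks the labels.

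BET proteins bind acetylated histones at promoters and enhancers and help RNA polymerase II pass from pausing into elongation. The listed genes act at several levels of cell regulation. EDN2 encodes a secreted endothelin peptide and P2RY6 a cell-surface receptor for the nucleotide UDP. PDE4B encodes an enzyme that breaks down the second messenger cAMP, and PLK2 a Polo-like kinase of the serum-induced early response. ANKRD50 encodes an ankyrin repeat protein that works with SNX27, retromer and the WASH complex in returning membrane proteins from endosomes to the cell surface. RBM15 encodes an RNA-binding protein that guides the m6A writer complex and is known to associate with the mRNA export receptor NXF1. PHF23 encodes a PHD finger protein that reads methylated histone H3, and KMT5B the enzyme that adds methyl groups to lysine 20 of histone H4. SILC1 is a long noncoding RNA known in mouse for acting on the neighbouring gene Sox11, and no role is given here for C16orf87.

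In GENCODE 29 on GRCh38, EDN2 spans chr1:41478775-41484673, RBM15 chr1:110338506-110346681, PDE4B chr1:65792514-66374579 and SILC1, named LINC01105 in that release, chr2:5932687-6001275. ANKRD50 spans chr4:124664052-124712732, PLK2 chr5:58453982-58460260, KMT5B chr11:68154863-68213828, P2RY6 chr11:73264505-73298617, C16orf87 chr16:46796607-46831411 and PHF23 chr17:7235028-7239722. PDE4B, RBM15, P2RY6 and SILC1 are on the plus strand and the other 6 genes on the minus strand. RBM15 overlaps the antisense gene RBM15-AS1, which was also tested, PDE4B overlaps the antisense gene AL590783.1 and the small RNA gene RNU4-88P, and SILC1 contains the microRNA gene MIR7158. The strand counted is not given in the sources used here, so reads of these 3 genes cannot be told apart from those of the genes they overlap.

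RefSeq promoter sequences (GRCh38.p14, 250 bases before to 50 bases after the start site) were at hand for 8 of the 10 genes, and those of a secreted ligand, a signalling kinase and an RNA regulator are printed to show how unlike they are. They are given on the sense strand, 5′ to 3′, with the motifs found in capitals. Both strands were searched for the GC box, spelled GGGCGG, and for the CCAAT box, which has the letters of its name. The TATA box was searched as TATAAA and the E-box as CACGTG. The cAMP response element, or CRE, was searched as TGACGTCA and the AP-1 site as TGANTCA. The first is EDN2 at chr1:41484634-41484933 on the minus strand, the next PLK2 at chr5:58460037-58460336 on the minus strand, and the last RBM15 at chr1:110339127-110339426 on the plus strand.
EDN2: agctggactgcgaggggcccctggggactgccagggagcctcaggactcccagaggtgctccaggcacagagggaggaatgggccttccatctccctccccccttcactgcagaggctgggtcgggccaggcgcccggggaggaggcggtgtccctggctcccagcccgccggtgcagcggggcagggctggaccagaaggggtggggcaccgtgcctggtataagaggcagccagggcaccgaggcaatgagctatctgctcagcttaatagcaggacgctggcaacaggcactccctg
PLK2: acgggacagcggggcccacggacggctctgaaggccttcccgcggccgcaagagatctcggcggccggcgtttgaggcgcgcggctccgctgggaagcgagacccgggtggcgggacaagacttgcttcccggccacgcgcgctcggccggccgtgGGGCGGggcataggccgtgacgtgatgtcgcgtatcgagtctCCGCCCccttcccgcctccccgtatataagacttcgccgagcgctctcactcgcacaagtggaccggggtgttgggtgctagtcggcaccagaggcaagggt
RBM15: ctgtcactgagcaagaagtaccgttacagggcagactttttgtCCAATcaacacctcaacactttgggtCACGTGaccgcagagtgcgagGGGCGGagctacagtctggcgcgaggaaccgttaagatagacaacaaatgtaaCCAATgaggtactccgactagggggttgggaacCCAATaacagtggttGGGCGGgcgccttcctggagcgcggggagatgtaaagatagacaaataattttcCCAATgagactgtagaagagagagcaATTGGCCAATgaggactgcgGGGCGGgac
The EDN2 sequence held none of these motifs, PLK2 held 2 GC boxes, and RBM15 held 6 CCAAT motifs, 3 GC boxes and 1 E-box. Their GC contents were 68.33%, 70.0% and 52.67%, against a median of 58.67% over 35116 promoters. A GC box lay in at least 1 promoter of 5 of the 8 genes (45% of all promoters held one), a CCAAT motif in 3 of the 8 (34.6%) and an E-box in 1 of the 8 (7.26%). The TATA box spelled TATAAA (11.5%), the CRE (1.85%) and the AP-1 site (7.71%) lay in 0 of the 8. Other spellings were not searched, and the printed EDN2 and PLK2 sequences hold tataag, a near match to TATAAA. These counts are per gene, over several promoters for PDE4B, PHF23 and KMT5B. The shares are per promoter, so the counts cannot be set directly against them. A match describes letters in this window and is not a site of binding.

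Values are T-to-C reads divided by 1 factor per library, which the deposited table names an ERCC factor, summed over the intervals of a gene and called units here. Depth ran from 1.58 to 6.77 M T-to-C reads a library (M, mega), and 1 read was worth 0.470 to 2.75 units, so many of the JQ1-VHL values below rest on a handful of reads. ERCC RNA was added by mass of RNA, so a value is relative to the mass of RNA recovered, and fewer cells of a type and less RNA per cell cannot be told apart. Rescaled values were also divided by size factors (medians of ratios, taken on genes read in all 18 libraries). The median log2 change of all tested genes was -0.49 (total), -1.82 (nuclear) and -0.02 (cytoplasmic) before this step, and -0.19, -0.01 and 0.05 after it. Of 12 luminal markers 10 were tested, among them GATA3 and KRT8, while ESR1 had 25 reads over the 18 libraries and PGR no interval. Of 16 markers of other cell types, COL1A1 and ALB were tested, the basal markers TP63 and EGFR fell below the filter and the other 12 had no interval. The hepatocyte marker ALB summed to 63.8 to 107 units in JQ1-VHL total libraries, against 15.7 to 35.7 units in DMSO total libraries, and the fibroblast marker COL1A1 to 450.1 to 566 units, against 194 to 1035 units, and luminal markers went both ways, with FOXA1 averaging 39.0 units in JQ1-VHL total libraries and 685 units in DMSO total libraries, and KRT8 11821 and 8920 units. The part of these differences in the results was not tested.

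In total RNA, 3 hours of JQ1-VHL left 1.73% to 9.92% of the DMSO mean of each listed gene, and 2.21% to 12.9% after rescaling. The 3 JQ1-VHL libraries lay below the 3 DMSO libraries for 10 of the 10 genes, as for 24.8% of all tested genes, a count that the choice of the list fixed. C16orf87, PHF23 and P2RY6 were lowest on the log2 scale, and KMT5B and SILC1 kept the most.

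EDN2 had 2.75, 7.22 and 4.80 units in JQ1-VHL total libraries, against 459, 87.1 and 115 units in DMSO total libraries. P2RY6 had 5.50, 19.3 and 0 units in JQ1-VHL total libraries, against 526, 87.7 and 131 units in DMSO total libraries. All 10 genes were highest in DMSO total replicate 1, where 1 read was worth 2.01 units, against 0.627 and 0.761 in the other DMSO total libraries, and no JQ1-VHL library of EDN2 or P2RY6 came near the lowest DMSO library. PDE4B had 2.75, 4.81 and 4.80 units in JQ1-VHL total libraries, against 358, 100.3 and 119 units in DMSO total libraries. PLK2 had 197, 152 and 74.4 units in JQ1-VHL total libraries, against 4527, 1290.4 and 1412 units in DMSO total libraries. PLK2 was counted well in every library, with at least 62 reads, whereas PDE4B was reduced to 2, 4 and 4 reads in the JQ1-VHL libraries.

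ANKRD50 had 0, 2.41 and 4.80 units in JQ1-VHL total libraries, against 177, 63.3 and 69.2 units in DMSO total libraries. RBM15 had 8.25, 19.3 and 2.40 units in JQ1-VHL total libraries, against 461, 169 and 199 units in DMSO total libraries. For both genes the groups stood far apart. PHF23 had 4.12, 0 and 0 units in JQ1-VHL total libraries, against 151, 32.0 and 54.8 units in DMSO total libraries. KMT5B had 44.0, 28.9 and 19.2 units in JQ1-VHL total libraries, against 508, 179.9 and 240.4 units in DMSO total libraries. The histone H4 methyltransferase gene thus kept measurable new RNA in every JQ1-VHL library, while the histone H3 reader gene PHF23 was read in only 1 of the 3. SILC1 had 8.25, 2.41 and 6 units in JQ1-VHL total libraries, against 185, 21.3 and 30.4 units in DMSO total libraries. C16orf87 had 11, 0 and 0 units in JQ1-VHL total libraries, against 266, 53.3 and 82.1 units in DMSO total libraries. The SILC1 groups lay closer together than those of C16orf87, and the lowest SILC1 DMSO library held 34 reads.

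The log2 changes in total RNA ran from -5.54 ± 1.07 (SE) for C16orf87 to -3.07 ± 1.12 for SILC1, with a list median of -4.96 against -0.49 for all tested genes. PHF23 (-5.25), P2RY6 (-5.17), ANKRD50 (-5.10), PDE4B (-5.03), EDN2 (-4.89) and RBM15 (-4.86) lay close together, and PLK2 (-3.94) and KMT5B (-3.22) were less steep. Counted from the lowest of 10191 genes, C16orf87 stood at rank 3, PHF23 at 5, P2RY6 at 7, ANKRD50 at 9, PDE4B at 11, EDN2 at 14 and RBM15 at 15, while PLK2, KMT5B and SILC1 stood at 128, 347 and 427. After rescaling the changes ran from -5.19 to -2.75 with the ends held by the same genes.

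**Figure D1:**
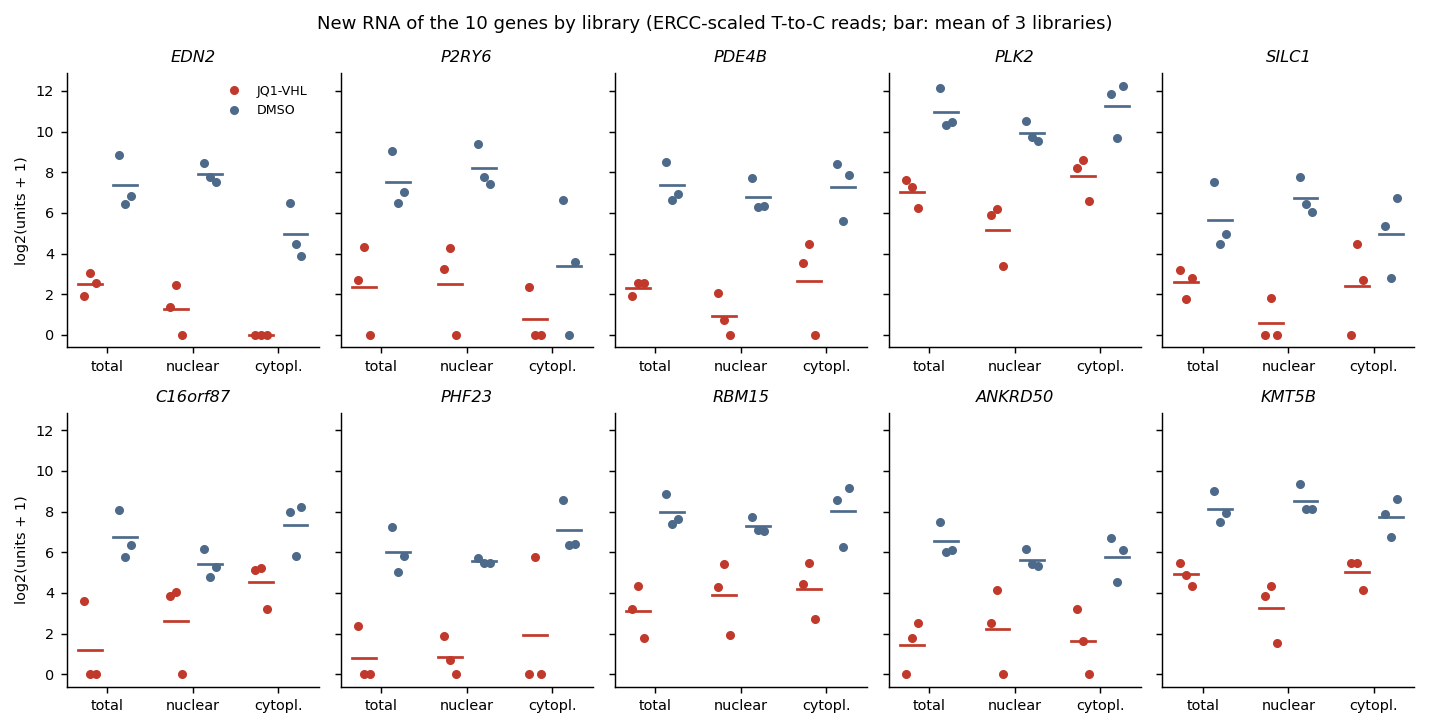
New RNA of each of the 10 genes in all 18 libraries, as log2(units + 1) on the vertical axis, for total, nuclear and cytoplasmic RNA on the horizontal axis. Red points are JQ1-VHL libraries, blue points DMSO libraries, and each bar is the mean of the 3 log2 values. The groups stand apart in total and nuclear RNA for all 10 genes, and in cytoplasmic RNA those of P2RY6 and SILC1 overlap.

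In nuclear RNA the list divided, as a choice by loss in total or in nuclear libraries allows, so this is a description only. EDN2, SILC1 and PDE4B kept 0.811%, 0.709% and 1.05% of the DMSO mean, and P2RY6, PHF23, KMT5B and PLK2 kept 2.53%, 2.39%, 2.85% and 4.61%. RBM15, ANKRD50 and C16orf87 kept more, at 13.2%, 14.2% and 21.3%. Rescaled shares were higher, at 1.95%, 1.69% and 3.23% for EDN2, SILC1 and PDE4B, 6.96%, 6.36%, 8.48% and 13.6% for P2RY6, PHF23, KMT5B and PLK2, and 34.9%, 33.3% and 56.3% for RBM15, ANKRD50 and C16orf87. The JQ1-VHL libraries lay below the DMSO libraries for 10 of 10 genes, but this held for 71.2% of all tested genes, and the median of all genes was lower as well on the ERCC scale. After rescaling it held for 9 of 10 genes, against 27.7% of all tested genes, and the exception was C16orf87.

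The secreted ligand EDN2 had 1.60, 4.52 and 0 units in JQ1-VHL nuclear libraries, against 355, 218 and 181 units in DMSO nuclear libraries. Its log2 change of -6.64 ± 1.11 (SE) was the lowest of all 10191 tested genes, and it stayed at rank 1 after rescaling (-5.74). The noncoding RNA SILC1 had 0, 2.58 and 0 units in JQ1-VHL nuclear libraries, against 215, 84.8 and 64.9 units in DMSO nuclear libraries (log2 change -6.12). All of its JQ1-VHL nuclear signal was 4 reads in replicate 2. PDE4B had 3.19, 0.646 and 0 units in JQ1-VHL nuclear libraries, against 211, 76.3 and 79.0 units in DMSO nuclear libraries (log2 change -5.85). P2RY6 had 8.51, 18.1 and 0 units in JQ1-VHL nuclear libraries, against 663, 219 and 170.2 units in DMSO nuclear libraries (log2 change -5.69). These 4 genes stood at ranks 1, 3, 5 and 7 from the lowest.

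KMT5B had 13.3, 19.4 and 1.90 units in JQ1-VHL nuclear libraries, against 658, 277 and 279.8 units in DMSO nuclear libraries (log2 change -5.30). PLK2 had 58.0, 73.0 and 9.50 units in JQ1-VHL nuclear libraries, against 1465, 846 and 737 units in DMSO nuclear libraries (log2 change -4.76). PHF23 had 2.66, 0.646 and 0 units in JQ1-VHL nuclear libraries, against 51.6, 43.8 and 42.8 units in DMSO nuclear libraries (log2 change -4.69). The DMSO nuclear libraries of PHF23 lay close together on the ERCC scale, at 46.1 ± 4.82 units (SD, n = 3). RBM15 had 18.6, 42.0 and 2.85 units in JQ1-VHL nuclear libraries, against 209, 138 and 132 units in DMSO nuclear libraries (log2 change -3.41). ANKRD50 had 4.79, 16.8 and 0 units in JQ1-VHL nuclear libraries, against 69.6, 42.7 and 39.5 units in DMSO nuclear libraries (log2 change -3.41). C16orf87 had 13.3, 15.5 and 0 units in JQ1-VHL nuclear libraries, against 70.4, 26.4 and 38.1 units in DMSO nuclear libraries (log2 change -2.78). For these 3 genes JQ1-VHL replicate 2 came closest to the DMSO libraries, and they stood at ranks 958, 945 and 2171 from the lowest.

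JQ1-VHL nuclear replicate 3 held the fewest reads of the 18 libraries, 1.58 M, and 7 of the 10 genes were at 0 in it. Its part in the nuclear values was not tested beyond leaving it out. With all libraries the rescaled nuclear log2 changes of C16orf87, ANKRD50 and RBM15 were -1.79, -2.45 and -1.67. Without that library the change of C16orf87 was -1.47 by ERCC scaling and -0.22 rescaled, that of ANKRD50 -2.30 and -1.09, and that of RBM15 -2.44 and -1.16. The rescaled C16orf87 values of the other 2 JQ1-VHL nuclear libraries, 27.3 and 23.1, lay within the range of 23.0 to 36.4 of the DMSO nuclear libraries. New C16orf87 RNA in total libraries had no such overlap. Whether the changes of 1 gene differed between total and nuclear RNA was not tested, since both chose the list.

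In cytoplasmic RNA, which the choice of genes did not use, each of the 10 genes had a lower mean under JQ1-VHL, and 6 fell by the limma test with Benjamini-Hochberg adjustment over all 10191 genes (two-sided, 0.05). They were the ligand gene EDN2, the cAMP phosphodiesterase gene PDE4B, the kinase gene PLK2, the endosomal gene ANKRD50 and the nuclear regulator genes RBM15 and PHF23. On this scale 3.67% of all tested genes were called lower and 0.226% higher. After rescaling 9 of the 10 were called lower, all but P2RY6, against 15.9% of all tested genes. The labels give the 3 fractions the same batch numbers, so the cytoplasmic libraries are not a separate experiment.

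EDN2 had 0 units in all 3 JQ1-VHL cytoplasmic libraries, against 89.2, 21.0 and 13.8 units in DMSO cytoplasmic libraries. With a floor of 3 counts per library this was at least 7.32-fold lower, a floor that covers counting error only, because amplified reads are not separate molecules, and it passed the test (log2 change -4.95 ± 1.11, limma adjusted p = 0.00185). PDE4B had 10.5, 21.5 and 0 units in JQ1-VHL cytoplasmic libraries, against 340.1, 46.9 and 231 units in DMSO cytoplasmic libraries (log2 change -4.62 ± 1.08, limma adjusted p = 0.00298). PLK2 had 291, 391 and 96.4 units in JQ1-VHL cytoplasmic libraries, against 3739.9, 824 and 4899.7 units in DMSO cytoplasmic libraries (-3.47 ± 0.83, adjusted p = 0.00411). The PLK2 and PDE4B groups did not overlap, and for both the narrowest gap was between JQ1-VHL replicate 2 and DMSO replicate 2. ANKRD50 had 8.38, 2.15 and 0 units in JQ1-VHL cytoplasmic libraries, against 102, 22.1 and 68.9 units in DMSO cytoplasmic libraries (-4.15 ± 1.11, adjusted p = 0.0132). RBM15 had 20.9, 43.0 and 5.59 units in JQ1-VHL cytoplasmic libraries, against 385, 75.7 and 576 units in DMSO cytoplasmic libraries (-3.80 ± 0.98, adjusted p = 0.00919). PHF23 had 0, 53.8 and 0 units in JQ1-VHL cytoplasmic libraries, against 373, 82.3 and 82.6 units in DMSO cytoplasmic libraries (-5.18 ± 1.12, adjusted p = 0.00126). All JQ1-VHL cytoplasmic signal of PHF23, 25 reads, stood in replicate 2. Its neighbouring intervals 4 to 9 held 3 reads each and were equal in 15 to 18 of the 18 libraries, so some fragments may be counted several times in that sum.

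KMT5B had 44.0, 43.0 and 16.8 units in JQ1-VHL cytoplasmic libraries, against 238, 105 and 388 units in DMSO cytoplasmic libraries (-2.71 ± 0.94, adjusted p = 0.0784 by limma). C16orf87 had 33.5, 36.6 and 8.38 units in JQ1-VHL cytoplasmic libraries, against 248, 55.2 and 295 units in DMSO cytoplasmic libraries (-2.80 ± 1.07, adjusted p = 0.130). The groups of both genes stood apart although neither passed the test on the ERCC scale, and both passed after rescaling (adjusted p = 0.000262 for KMT5B and 0.0423 for C16orf87). With the batch number as a replicate block KMT5B passed on the ERCC scale as well (adjusted p = 0.0378). SILC1 had 0, 21.5 and 5.59 units in JQ1-VHL cytoplasmic libraries, against 39.6, 6.07 and 105 units in DMSO cytoplasmic libraries (-2.56 ± 1.12, adjusted p = 0.227). P2RY6 had 4.19, 0 and 0 units in JQ1-VHL cytoplasmic libraries, against 97.4, 0 and 11 units in DMSO cytoplasmic libraries (-2.61 ± 1.10, adjusted p = 0.200). Both pairs of groups overlapped, for SILC1 because JQ1-VHL replicate 2 exceeded DMSO replicate 2, and for P2RY6 because DMSO replicate 2 held no read. SILC1 passed after rescaling (adjusted p = 0.0427) and P2RY6 did not (-1.98, adjusted p = 0.260). P2RY6 rests on 2 reads under JQ1-VHL and 63 reads under DMSO, 59 of them in DMSO replicate 1, a ratio of 5.32% after the ERCC factors. Its Clopper-Pearson 95% interval, from 0.631% to 20.03%, covers counting error only. It treats the pooled reads as independent counts, which does not hold where a fragment is counted in more than 1 interval.

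The JQ1-VHL cytoplasmic libraries lay below the DMSO cytoplasmic libraries for 8 of 10 genes on either scale, against 5.98% of all tested genes (17.9% where rescaled). The genes differed: PHF23 overlapped only after rescaling, with 33.9 in JQ1-VHL replicate 2 and 27.7 in DMSO replicate 3, and SILC1 only before it. The median log2 change of the list was -3.63, against -0.02 for all tested genes, and its range was -5.18 to -2.56. With 3 libraries a group, the smallest two-sided p of an exact permutation test is 0.1. On the ERCC scale the median prior degrees of freedom of limma were infinite, against 6.74 after rescaling. Where they are infinite a gene's variance comes from the trend alone, so the adjusted p-values there lean on the other genes. The number of listed genes called was 1 without DMSO cytoplasmic replicate 1 (PHF23), 3 without DMSO replicate 3 (EDN2, PDE4B and PHF23) and 2 without JQ1-VHL replicate 3 (EDN2 and PHF23), and it was 10 without DMSO replicate 2, whereas rescaled values gave 7 or 8 whichever library was left out.

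**Figure D2:**
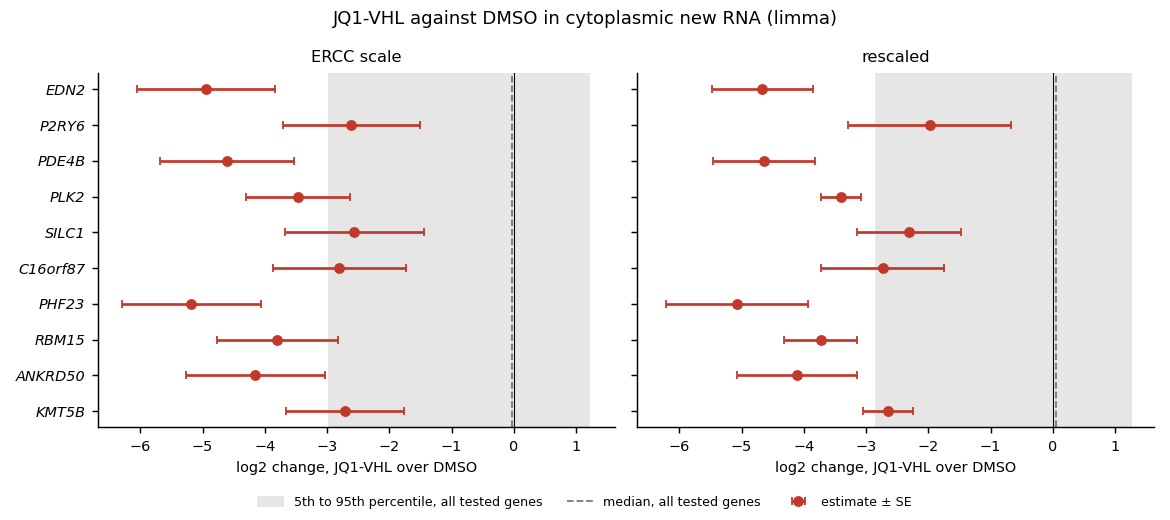
The log2 change of each gene in cytoplasmic RNA, JQ1-VHL over DMSO, on the ERCC scale (left) and after rescaling (right), as the limma estimate with its SE. The grey band is the 5th to 95th percentile of all tested genes and the dashed line their median. EDN2, PDE4B, PLK2, PHF23, RBM15 and ANKRD50 lie left of the band on both scales.

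Under DMSO the new RNA of these genes was also spread differently over nucleus and cytoplasm. By limma on the ERCC scale 2 of the 10 genes were called higher in nuclear than in cytoplasmic RNA, and 0 lower. The 2 were EDN2 and P2RY6, the ligand and the receptor. Of all tested genes 14.7% were called higher and 5.92% lower, so these counts do not set the list apart. P2RY6 had 663, 219 and 170.2 units in DMSO nuclear libraries, against 97.4, 0 and 11 units in DMSO cytoplasmic libraries (log2 difference 4.79 ± 1.10, limma adjusted p = 0.000743). EDN2 had 355, 218 and 181 units in DMSO nuclear libraries, against 89.2, 21.0 and 13.8 units in DMSO cytoplasmic libraries (2.97 ± 1.11, adjusted p = 0.0393). In both genes every nuclear library was above every cytoplasmic one, as for 24.1% of all tested genes, and 1 gene lay wholly below (4.29%). After rescaling 3 lay above and 3 below (42.1% and 27.5%). The DMSO nuclear libraries had a part in choosing the list. The adjusted p-values of the listed genes in this comparison, here and in the next paragraph, are therefore descriptive and not independent of that choice. The EDN2 call was lost with a pseudocount of 0.1 and without any 1 of DMSO cytoplasmic replicates 2 and 3 and DMSO nuclear replicates 1, 2 and 3.

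PLK2 leaned the other way, with a log2 difference of -1.35 ± 0.83 (adjusted p = 0.243) by ERCC scaling and -1.51 ± 0.32 (limma adjusted p = 0.000588) rescaled, where 23.8% of all tested genes were called lower in the nucleus and 33% higher. PHF23, at -1.55 ± 1.12 (adjusted p = 0.331), was the gene whose 3 nuclear libraries all lay below its 3 cytoplasmic libraries. C16orf87 (-1.92 ± 1.07, adjusted p = 0.190), SILC1 (1.78 ± 1.12, adjusted p = 0.253), KMT5B (0.79 ± 0.94, adjusted p = 0.581), RBM15 (-0.71 ± 0.98, adjusted p = 0.641), PDE4B (-0.51 ± 1.08, adjusted p = 0.773) and ANKRD50 (-0.14 ± 1.11, adjusted p = 0.945) were not called by limma on either scale. Each fraction was scaled by its own mass of RNA, so the difference is one of new RNA per mass and not of molecules per compartment. Counted on the ERCC scale, the list median was -0.33 against 0.63 for all tested genes.

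**Figure D3:**
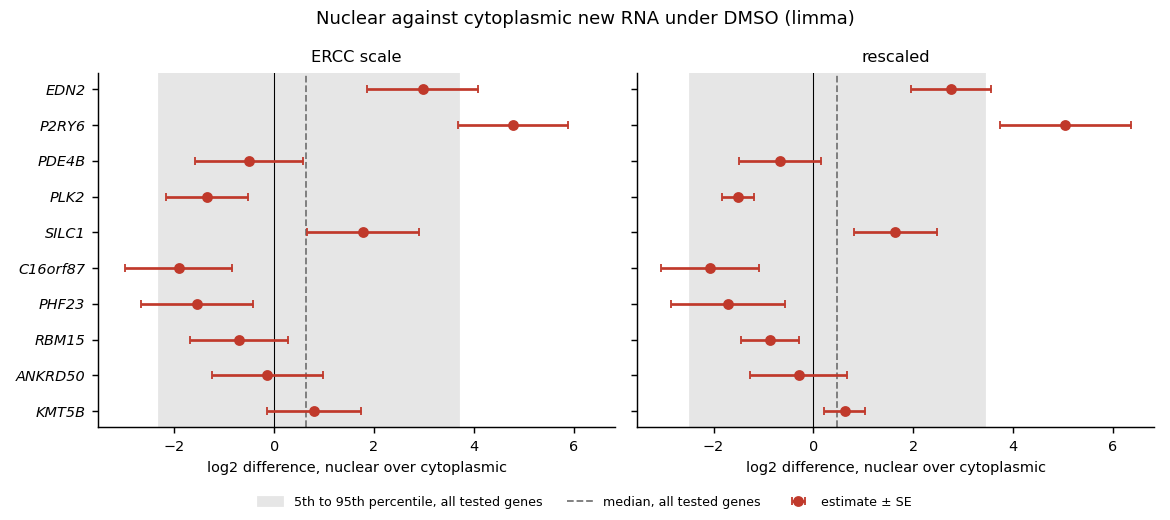
The log2 difference between DMSO nuclear and DMSO cytoplasmic RNA for each gene, on the ERCC scale (left) and after rescaling (right), as the limma estimate with its SE. The grey band is the 5th to 95th percentile of all tested genes and the dashed line their median. P2RY6 lies right of the band at 4.79 and 5.05, and C16orf87, PHF23 and PLK2 lie lowest.

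The deposited table counts a gene in numbered intervals, 69 for the 10 genes, and the loss was not limited to a few of them. The table has no interval before number 18 in PDE4B or number 4 in P2RY6. In total RNA 69 of the 69 intervals had a lower mean under JQ1-VHL, in nuclear RNA 69 and in cytoplasmic RNA 67. The groups did not overlap in 69, 68 and 47 intervals in that order, against 22.7%, 55.6% and 6.01% of all 98665 intervals, and the choice of genes bears on the first 2 of these counts. PLK2 had no overlap in any of its 9 intervals in any fraction, and its intervals kept 1.77% to 8.32% of the DMSO mean in total RNA, 1.55% to 8.98% in nuclear RNA and 3.77% to 13.5% in cytoplasmic RNA. In EDN2 each of the 7 intervals was at 0 in the JQ1-VHL cytoplasmic libraries. These intervals belong to the same transcripts and are not replicates.

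P2RY6, SILC1, RBM15 and ANKRD50 drew much of their signal from 1 interval, in ANKRD50 48.9% of its DMSO nuclear and 65.0% of its DMSO cytoplasmic units. Interval 4 of P2RY6 held 78.3% of its DMSO nuclear units and kept 2.94% under JQ1-VHL, and interval 1 of RBM15 held 81.0% and kept 11.6%. Interval 1 of SILC1 held 63.8% of its DMSO nuclear units and kept 1.11%, and it gave 14 of 14 JQ1-VHL cytoplasmic reads. In C16orf87 all 6 intervals kept more in the nucleus than the intervals of EDN2 did, from 16.6% to 33.6%. The only interval with a higher mean under JQ1-VHL was interval 13 of KMT5B in the cytoplasm, with 8 reads under JQ1-VHL and 6 under DMSO. Reads of C16orf87 intervals 5 and 6, and of PHF23 intervals 6 and 7, were equal in all 18 libraries, so a fragment was counted in more than 1 interval there and adds to the gene's sum each time.

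**Figure D4:**
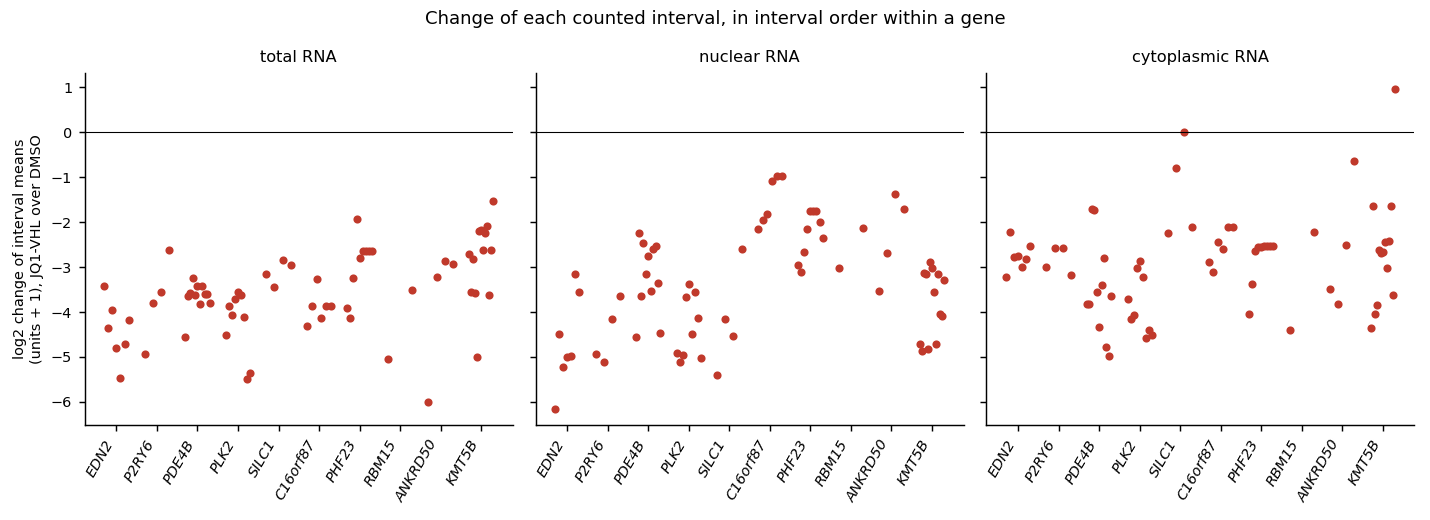
Change of each of the 69 intervals, as log2 of the ratio of interval means (units + 1), JQ1-VHL over DMSO, for total, nuclear and cytoplasmic RNA. Each point is 1 interval, in order of its number within the gene named below. All points lie below 0 in total and nuclear RNA, and in the cytoplasm interval 13 of KMT5B lies above it.

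Related genes of the same pathways and families were counted over 7 lists with 52 tested genes. Of these 52, 2 were called lower in total RNA, 21 in nuclear RNA and 1 in cytoplasmic RNA by limma on the ERCC scale, where 2.79%, 33.7% and 3.67% of all tested genes were, and 0 were called higher (0.245% of all tested genes in total RNA). At an unadjusted p under 0.05, 8, 30 and 7 were lower and 0, 0 and 2 higher. DESeq2 called 17 lower and 3 higher in total RNA, 9 lower and 10 higher in nuclear RNA and 10 lower and 6 higher in cytoplasmic RNA, and limma on rescaled values 11 and 2, 4 and 8, and 10 and 5. Of all tested genes the rescaled shares were 18.4% lower and 12.2% higher in total, 12.6% and 18.2% in nuclear and 15.9% and 14.8% in cytoplasmic RNA. These shares also apply to the rescaled counts of each list below. Under DMSO, 12 of the 52 were higher in nuclear than cytoplasmic RNA and 4 lower (14.7% and 5.92% of all tested genes), and after rescaling 23 and 15 (33% and 23.8%). The tested genes of the endothelin axis were EDN1, which encodes another endothelin peptide, and ECE1, the enzyme that cuts endothelin precursors, and 4 further genes had no interval. EDN1 averaged 9.91 units under JQ1-VHL and 111 under DMSO in total RNA (log2 change -3.56, limma adjusted p = 0.0419), 5.06 and 78.6 units in nuclear RNA (-3.68, adjusted p = 0.00790) and 7.15 and 109 units in cytoplasmic RNA (-3.96, adjusted p = 0.0153). EDN1 therefore fell in all 3 fractions. Its nuclear call was lost after rescaling (limma adjusted p = 0.0629). Its total call was lost without any 1 library other than JQ1-VHL replicate 1, its nuclear call without DMSO replicate 1 or JQ1-VHL replicate 3, and its cytoplasmic call without replicate 1 or 3 of either group. ECE1 was not called by limma on the ERCC scale (0.15, -0.71 and 0.53), and in nuclear RNA it was called higher after rescaling (1.16, adjusted p = 0.00726).

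Of 14 nucleotide receptor genes 2 were tested. P2RY2, the receptor for UTP and ATP, averaged 3.95 units under JQ1-VHL and 71.4 under DMSO in total RNA (-4.09, adjusted p = 0.0218), and 4.36 and 103 units in nuclear RNA (-4.31, adjusted p = 0.00329). It fell in both by the limma test, and in cytoplasmic RNA it gave -3.34 (adjusted p = 0.0668, and 0.0264 with the replicate block). Its total call was lost without DMSO replicate 1 or 3 or JQ1-VHL replicate 2 or 3. After rescaling P2RY2 was lower by limma in total (adjusted p = 0.00166), nuclear (adjusted p = 0.00655) and cytoplasmic RNA (-3.16, adjusted p = 0.00332). P2RX4, an ATP-gated channel gene, was not called (-0.10, -1.68 and -0.28). P2RY2 lies 28153 bp from P2RY6 and is its nearest tested gene on the lower-coordinate side.

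Of 28 genes of cAMP signalling 19 were tested, and 0 were called in total or cytoplasmic RNA by limma on the ERCC scale. In nuclear RNA 8 of the 19 fell, against 33.7% of all tested genes, and the 4 with the lowest adjusted p were PRKACB, a catalytic subunit of protein kinase A (-3.80, adjusted p = 0.00891), the transcription factor gene ATF1 (-2.96, adjusted p = 0.0112), the adenylyl cyclase gene ADCY9 (-3.38, adjusted p = 0.0112) and the CREB coactivator gene CRTC2 (-2.54, adjusted p = 0.0199). After rescaling 3 were lower and 2 higher in nuclear RNA, 4 lower and 1 higher in total RNA and 5 lower and 2 higher in cytoplasmic RNA. PDE4A, the paralogue of PDE4B, averaged 109.7 units in JQ1-VHL nuclear libraries and 140.3 units in DMSO nuclear libraries (-0.30, adjusted p = 0.772). Under DMSO, 3 of the 19 were higher in nuclear than cytoplasmic RNA and 3 lower, against 14.7% and 5.92% of all tested genes (10 and 4 after rescaling), with PDE4A at 4.38 (adjusted p = 0.000421), ADCY6 at 2.42 (0.0310), CREB1 at -2.58 (0.0145) and PRKAR1A, a regulatory subunit of protein kinase A, at -2.42 (0.0195).

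Of 3 tested Polo-like kinase genes other than PLK2, PLK4, which drives centriole duplication, fell in nuclear RNA (-2.85, adjusted p = 0.00968) and not after rescaling (adjusted p = 0.0579), while PLK1 (-1.14) and PLK3 (-1.34) were not called there. In total and cytoplasmic RNA 0 of the 3 were called by limma on the ERCC scale, with PLK1, a mitotic kinase, at 0.16 and 1.17. After rescaling PLK4 was lower in total RNA (adjusted p = 0.0192) and PLK1 higher in cytoplasmic RNA (adjusted p = 0.0281). Of 7 tested genes listed for m6A writing, METTL16 among them, 0 were called in total or cytoplasmic RNA by limma on the ERCC scale. VIRMA gave -0.50 and -0.03. After rescaling METTL3 was lower in total RNA (adjusted p = 0.0439 by limma) and METTL16 in cytoplasmic RNA (adjusted p = 0.0193). In nuclear RNA 3 of the 7 fell, against 33.7% of all tested genes, and after rescaling 0 did. The 3 were METTL3 (-2.68, adjusted p = 0.0243) and METTL14 (-2.37, adjusted p = 0.0267), which form the catalytic core, and CBLL1 (-2.61, adjusted p = 0.0414). METTL3 was higher in nuclear than cytoplasmic RNA under DMSO (2.72, adjusted p = 0.0294).

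Of 8 tested genes around H4 lysine 20 methylation and PHF23, 5 fell in nuclear RNA by limma on the ERCC scale. This compares with 33.7% of all tested genes, and 0 of the 8 were called in total or cytoplasmic RNA on that scale. Rescaled values gave 1 lower and 1 higher in total RNA and 2 lower and 1 higher in cytoplasmic RNA. The origin recognition gene ORC1 (-2.89, adjusted p = 0.0121), the methyl-lysine reader genes L3MBTL2 (-2.88, adjusted p = 0.0149) and L3MBTL1 (-2.57, adjusted p = 0.0338), and KMT5C, the paralogue of KMT5B (-2.91, adjusted p = 0.0295), were the 4 with the lowest adjusted p, and after rescaling 0 were lower and 2 higher. KMT5A, which adds the first methyl group, gave -0.01 in total RNA and 0.59 in cytoplasmic RNA. L3MBTL1 (3.23, adjusted p = 0.0109) and KMT5C (3.15, adjusted p = 0.0259) were higher in nuclear than cytoplasmic RNA under DMSO. Of 11 genes of retromer, SNX27 and the WASH complex, the partners of ANKRD50, all were tested and 0 were called in total or cytoplasmic RNA by limma on the ERCC scale, with VPS35 at 0.18 and 0.72. After rescaling 2 were lower in total RNA, among them VPS26B (adjusted p = 0.00979, and 0.0475 with the replicate block on the ERCC scale), and VPS35 was higher in cytoplasmic RNA (adjusted p = 0.0158). In nuclear RNA VPS26B (-3.12, adjusted p = 0.0175) and SNX27 (-2.12, adjusted p = 0.0492) fell, and after rescaling 0 were lower and 3 higher. Under DMSO 6 of the 11 were higher in nuclear than cytoplasmic RNA and 1 was lower, against 14.7% and 5.92% of all tested genes (6 and 5 after rescaling), led by WASHC1 (5.11, adjusted p = 0.000414), VPS26B (4.19, adjusted p = 0.00181), WASHC2A (4.34, adjusted p = 0.00308) and VPS29 (3.04, adjusted p = 0.00672). WASHC1 and WASHC2A have near-identical copies in the genome, so their reads are uncertain.

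All 16 nuclear calls named for these lists were lost without JQ1-VHL nuclear replicate 3, and all 16 without DMSO nuclear replicate 1. The count of all genes called in nuclear RNA was 239 without the first of these libraries and 308 without the second, against 3453 with all libraries.

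**Figure D5:**
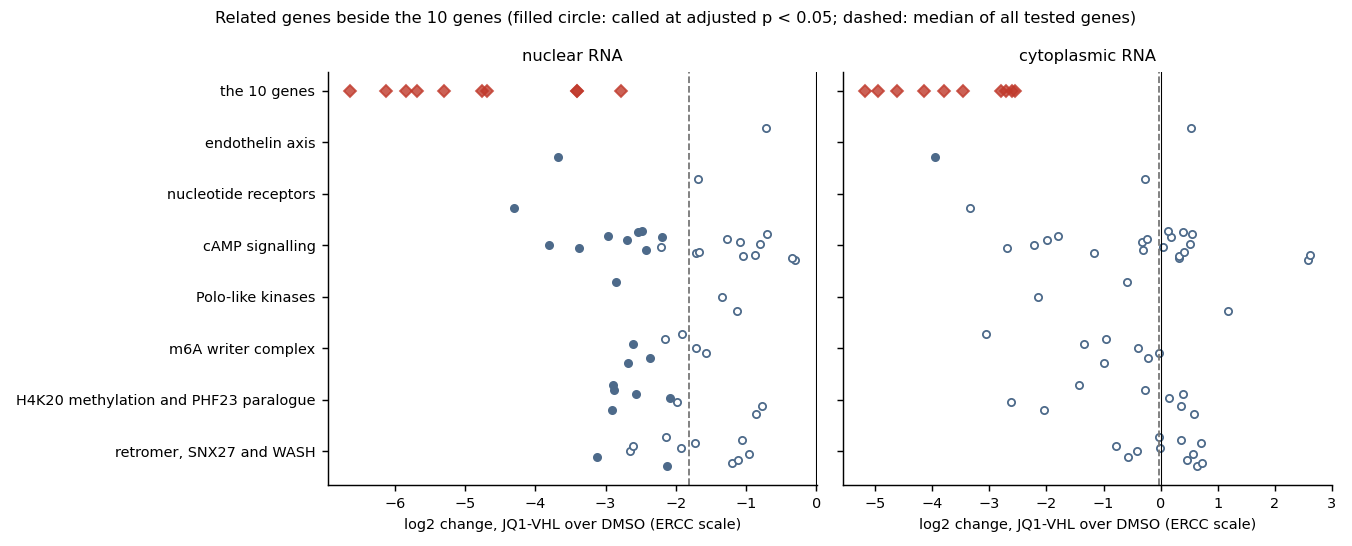
The log2 change, JQ1-VHL over DMSO on the ERCC scale, of the 10 genes (red diamonds) and of the related genes by list (circles, filled where called by limma), for nuclear RNA (left) and cytoplasmic RNA (right). The dashed line is the median of all tested genes. In cytoplasmic RNA EDN1, at -3.96, is the filled circle.

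Genes next to the listed ones in the genome had medians close to those of all tested genes. Of the 20 nearest tested genes, 1 on each side of each listed gene, 2 were called lower in total RNA, 6 in nuclear RNA and 1 in cytoplasmic RNA, against 2.79%, 33.7% and 3.67% of all tested genes. On this ERCC scale 0 were called higher by limma. At an unadjusted p under 0.05, 5, 9 and 4 were lower and 0, 0 and 2 higher. Rescaled values gave 5, 4 and 4 lower, against 18.4%, 12.6% and 15.9% of all tested genes. They gave 2, 1 and 3 higher, against 12.2%, 18.2% and 14.8%. DESeq2 called 5, 4 and 6 lower and 4, 3 and 5 higher. Their median log2 changes were -0.50, -1.74 and 0.16, against -0.49, -1.82 and -0.02 for all tested genes. P2RY2 was 1 of the 2 lower in total RNA, and the other was SPRY1, which encodes an inhibitor of receptor tyrosine kinase signalling and lies 1260292 bp from ANKRD50 (-4.06 in total RNA, adjusted p = 0.0109). SPRY1 also fell in nuclear RNA (-4.18) and in cytoplasmic RNA (-5.32). Among close neighbours, LAMTOR5-AS1, 435 bp from RBM15, gave 1.82 in total RNA (limma adjusted p = 0.435). DVL2 and CTDNEP1, 483 and 3869 bp from PHF23, gave 0.42 (adjusted p = 0.932) and 0.50 (adjusted p = 0.911) there. MYLK3, 6200 bp from C16orf87, gave 1.76 (adjusted p = 0.471). ARHGEF17, 9672 bp from P2RY6, gave -2.92 in total RNA (adjusted p = 0.0671) and fell in nuclear RNA (-3.75, adjusted p = 0.00291). Also called lower in nuclear RNA were C11orf24 (-3.43, adjusted p = 0.00604), FOXO6 (-3.19, adjusted p = 0.0223) and DEPDC1B (-2.87, adjusted p = 0.0300). FOXO6 and DEPDC1B were not called there after rescaling (adjusted p = 0.160 and 0.246). RBM15-AS1, which overlaps RBM15, gave -1.99 in total RNA (adjusted p = 0.380), -2.71 in nuclear RNA and -3.13 in cytoplasmic RNA (adjusted p = 0.0980).

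Over the 18 libraries, the pattern of each gene was set beside those of all other tested genes by the root mean square difference of log2(rescaled value + 1), each gene centred on its own mean. The smallest differences were 0.445 between PLK2 and FRMD4B and 0.481 between KMT5B and SPOP, where the median over all tested genes was 2.01 for PLK2 and 1.80 for KMT5B. RBM15 was most like the gene ENSG00000236064 (0.702), which has no symbol in the annotation, C16orf87 was most like NOP10 (0.722), ANKRD50 like INAFM2 (0.814), PDE4B like the luminal factor gene FOXA1 (0.907) and SILC1 like F12 (0.930). EDN2, P2RY6 and PHF23 had no gene nearer than 1.03 (TRIB2), 1.31 (PLOD3) and 1.12 (ZNF286B). Among the listed genes themselves, PLK2 and KMT5B were the nearest pair, at 0.731. P2RY6 stood farthest from the rest, with EDN2 as its nearest listed gene at 1.77. All of these patterns share the same 18 libraries and their depth, and no test was made on them.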

How the data were processed

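Newly made RNA was measured by SLAM-seq in 18 libraries. The unit is signal: per the file's name, the authors deposited T-to-C read counts divided by an ERCC factor per library, per numbered interval of a gene. Dividing by each library's smallest value gave back whole read counts for 100% of values, within 0.01. Tools listed in the submitters' processing notes were DESeq2, HTSeq, HISAT2, Trimmomatic 0.39 and bcl2fastq, with builds dm3 and GRCh37/hg19. How T-to-C reads were called, the counting rule and the strand are not given in the sources used here. All per-sample columns were used. The 98665 intervals were summed over 12755 gene IDs. The filter kept 10191 genes whose average was 10 units or more, and these hold 99.8% of the total.

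Testing used limma 3.58.1 (R 4.3.3, trend and robust eBayes) on log2(value + 1), which understates changes of low genes, with 6 group means, two-sided, adjusted by Benjamini-Hochberg at 0.05. Nothing in the labels says that replicates are separate cultures, so p-values reflect only how far these samples differ, which may be technical. The limma step was tested on simulated data for the cytoplasmic comparison only, with changes set in genes of higher value. That check does not cover genes near 0 or the other tools. Alternatives were rescaling, a pseudocount of 0.1, no filter, the highest interval, a replicate block, each library left out, edgeR 4.0.16 (quasi-likelihood test on recovered reads, ERCC factors or TMM) and DESeq2 1.42.0. The pairing comes from the labels, whose batch number equals the replicate number. As a pairing check, correlations between deviations of same-numbered JQ1-VHL and DMSO libraries were 0.222, 0.0754 and 0.156 in total, 0.274, -0.145 and 0.287 in nuclear and 0.0620, -0.0533 and 0.0197 in cytoplasmic RNA.

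The members and lists were chosen with earlier results of these data known. Named were all members, up to 4 called genes per related list and comparison by adjusted p, and the most similar gene. With none called in a list, the gene with the highest mean was named. Of the nearest tested gene on each side, those called on the ERCC scale and the closest ones were named. PLK3, METTL16, the overlapping RBM15-AS1 and the markers fall outside this rule. Some items are not reported here.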

Additional observations from a re-analysis of the deposited data

How the results depend on the processing

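Counts of calls depend on the scale. For JQ1-VHL against DMSO in total RNA, 309 genes were called, and 583 with a replicate block, 630 with no low-value filter, 61 with a pseudocount of 0.1, 3121 after rescaling, 3809 with edgeR and TMM, 4223 with DESeq2 and 18 to 236 without 1 library. For JQ1-VHL against DMSO in nuclear RNA, 3453 were called, and 239 to 4150 without 1 library. For JQ1-VHL against DMSO in cytoplasmic RNA, 397 were called, and 619 with a replicate block, 241 with edgeR on the ERCC scale, 199 with the highest interval, 3134 after rescaling, 2987 with edgeR and TMM, 3625 with DESeq2 and 74 to 1287 without 1 library. For nuclear against cytoplasmic RNA under DMSO, 2103 were called, and 5785 after rescaling, 6084 with edgeR and TMM, 6389 with DESeq2 and 876 to 2747 without 1 library. The cause was not tested. The split was 25 higher and 284 lower in total RNA (1245 and 1876 rescaled), 18 and 3435 in nuclear RNA (1859 and 1281 rescaled), 23 and 374 in cytoplasmic RNA (1509 and 1625 rescaled) and 1500 and 603 between nucleus and cytoplasm (3364 and 2421 rescaled).

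Rescaled counts without 1 library were 1545 to 2914 in total (1836, 1881 and 2017 without DMSO replicates 1, 2 and 3, and 1947 without JQ1-VHL replicate 2), 1946 to 3125 in nuclear (1998 without JQ1-VHL replicate 3) and 2201 to 3394 in cytoplasmic RNA, and 4958 to 5490 between nucleus and cytoplasm. Listed genes called lower in cytoplasmic RNA were 6 (1 to 10 without 1 library; 7 to 8 rescaled), also 6 with edgeR on the ERCC scale, where P2RY6 replaced PHF23, and 4 with the highest interval. Listed genes called higher in nuclear RNA under DMSO were 2, and 1 with a pseudocount of 0.1 (1 to 2 without 1 library; 1 to 3 rescaled). The log2 difference of PDE4B between nucleus and cytoplasm turned to 0.053 without DMSO cytoplasmic replicate 1 (lowest -1.36), and that of ANKRD50 (lowest -0.77) to 0.32, 0.03 and 0.01 without DMSO cytoplasmic replicate 1, DMSO cytoplasmic replicate 3 and DMSO nuclear replicate 3. The replicate block changed the call of KMT5B in cytoplasmic RNA and of no other listed gene, and that of P2RY2 and METTL16 there among the related genes. Under JQ1-VHL the cytoplasmic sums of EDN2, P2RY6 and ANKRD50 rest on 0, 2 and 5 reads.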
